A study of Rattus norvegicus with 10 samples.

Results

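Translation initiation factors (eIFs) load the initiator tRNA and the messenger RNA onto the small ribosomal subunit. They are followed here through the 70 probe sets whose single gene symbol in the platform annotation begins with Eif and a digit, with the Eif2ak kinases left out. These 70 probe sets, out of 31042 on the array that are not controls, stand for 45 of the 14217 genes that a probe set names alone. Another 5 probe sets carry an Eif symbol together with a second symbol, among them those of Eif3e and Eif5, and are not counted as members. RNA came from the NTS (nucleus tractus solitarii), where the nerves of the arterial baroreceptors reach the brainstem. There were 5 arrays of male spontaneously hypertensive rats (SHR), an inbred strain with high blood pressure, and 5 of male Wistar-Kyoto rats (WKY), its normotensive control strain, all aged 10 to 13 weeks. No treatment or introduced allele is named for either strain, so the labels separate the groups by strain alone. The design text treats every array as a separate biological sample, but the sample descriptions name 5 animals, so an array may hold a pool, and the p-values then reflect no more than the spread among these 10 RNA samples.

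In outline, eIF2 carries the initiator tRNA as a complex with GTP, eIF1, eIF1A and eIF3 hold the small subunit open for scanning, and the eIF4 proteins bind the cap of the messenger RNA and unwind its leader. eIF5 and eIF5B complete start site recognition and the joining of the large subunit, which eIF6 keeps apart until then. In neurons the control points are the phosphorylation of eIF2, which lowers the supply of initiator tRNA, and the 4E-BP proteins, which hold back the cap-binding eIF4E until mTORC1 releases them.

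The 10 arrays had been scaled by the authors to one trimmed mean, and the median signal was 44.2 to 49.8 on the SHR arrays and 39.6 to 45.7 on the WKY arrays. Of the markers used to check the tissue, the noradrenergic genes Dbh and Th had signals of 272 ± 28.7 and 416 ± 19.1 in SHR and 334 ± 51.1 and 477 ± 67.8 in WKY (SD, n = 5). Some markers passed limma's test at an adjusted p below 0.05, each gene by its brightest tested probe set. Lower in SHR were 2 of 4 tested NTS markers (Tac1 and Prlh), 2 of 5 microglia markers (Aif1 and C1qa) and 1 of 4 oligodendrocyte markers (Mobp). Of the 5 neuron markers 1 was higher (Snap25). By the same rule 4.11% of all 10668 genes passed in either direction, and lists this short give only rough shares. Not every probe set of these lists leaned the same way: a second Aif1 probe set was at 0.51 ± 0.18 (limma adjusted p = 0.124), Cx3cr1 at 0.19 and Mbp at 0.28, none past the threshold. The probe sets of Mobp differed in size, at -0.34 ± 0.072 on the brightest, -1.41 ± 0.078 (limma adjusted p = 9.68e-09) on another and -0.022 ± 0.096 on the dimmest. Among astrocyte, endothelial, choroid plexus and blood markers 0 passed. The summed signal of the 5 microglia markers was 798 to 871 on SHR arrays and 969 to 1167 on WKY arrays. That of the 4 NTS markers was 1345 to 1509.5 and 1577 to 2226. For the 5 neuron markers it was 5542 to 6821 and 4985 to 5567, and for the 4 oligodendrocyte markers 5162 to 6618 and 4831 to 6369. The neuron and oligodendrocyte sums overlapped between the strains. The part of these shifts in the differences below was not tested. In tissue RNA, fewer cells of a type and less RNA in each cell cannot be told apart.

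A probe set was tested if it reached the 40th percentile of the array on at least 5 of the 10 arrays, which kept 61 of the 70 and at least 1 probe set of all 45 genes. Of the 61, 2 passed limma's test at a Benjamini-Hochberg adjusted p below 0.05 over all 18846 probe sets tested, Eif3c and Eif4ebp2, both lower in SHR, and 0 were higher. That is 3.28% of the members, against 4.26% of all probe sets tested (2.20% lower and 2.06% higher), so the count of initiation factors that differed was not above the background. The median log2 difference of the 61 was -0.044, against 0.016 over all probe sets tested, and 38 of them, or 62.3%, lay below 0, against 46.0%. Members are brighter than most probe sets, with a median mean signal of 229 against 95.8. Among the 4132 probe sets at or above that level, 61.2% lay below 0 and the median was -0.030. The SHR and WKY values did not overlap for 6 of the 61 tested member probe sets, all lower in SHR. That is 9.84% against 6.13% of all probe sets tested (2.91% lower and 3.22% higher), and 4.11% of the 4132 bright ones were separated in that direction. An unadjusted limma p under 0.05 was found for 16 of the 61 members (12 lower and 4 higher) and for 21.0% of all probe sets tested. The counts of unadjusted p under 0.05 given below, for single factors or other lists, are to be read beside that 21.0%. The 6 without overlap were Eif1ax, Eif3a, Eif3c, Eif3d, Eif4a1 and Eif4ebp2.

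**Figure D1:**
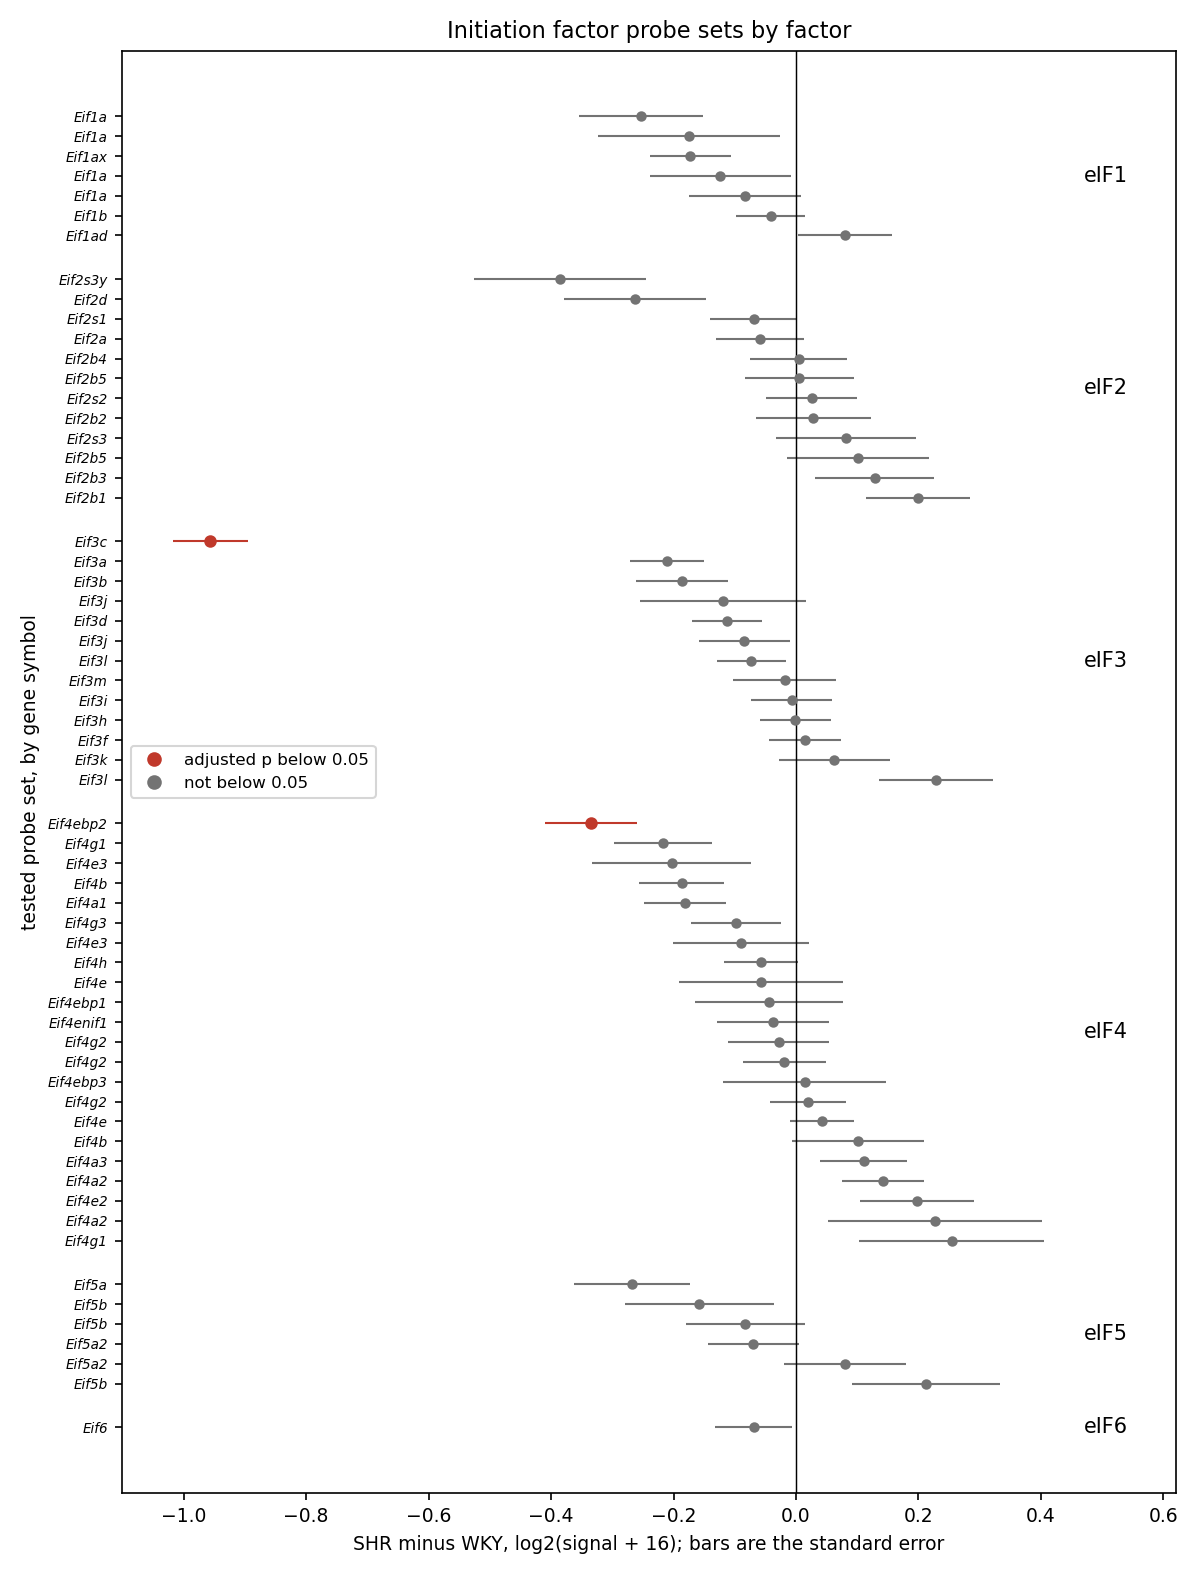
Each point is the SHR minus WKY difference of 1 tested probe set in log2(signal + 16), with its standard error as the bar, grouped by factor from eIF1 to eIF6 and named by gene. The 2 probe sets past the threshold, Eif3c at -0.96 and Eif4ebp2 at -0.33, are red, and the other 59 lie between -0.39 and 0.25.

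Eif3c encodes a subunit at the centre of the eIF3 core, where it contacts eIF1 and eIF5 and forms the platform of the complex together with Eif3a. Its bright probe set had signals of 361, 325, 345, 331 and 311 in the 5 SHR arrays and of 655, 636, 627, 686 and 718 in the 5 WKY arrays. Every SHR array was thus below every WKY array, with the highest SHR signal at 361 and the lowest WKY signal at 627. The means were 335 ± 19.2 in SHR and 664 ± 37.7 in WKY (SD, n = 5). The log2 difference was -0.96 ± 0.061 (SE; 95% interval -1.08 to -0.83), which is 1.94-fold lower in SHR on the scale of signal + 16, with a limma adjusted p of 3.56e-08 that ranked number 8 among all 18846 probe sets. Here and below, ± is the SD over 5 arrays for a signal and the standard error of the fit for a log2 difference.

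A second probe set of Eif3c was too dim for the test. It had 9.09, 14.9, 1.13, 1.59 and 15.4 in SHR and 20.9, 18.1, 18.4, 17.04 and 10.9 in WKY. Its SHR values were mostly the lower ones, but the strains overlapped. Tested without the filter it differed by -0.48 ± 0.18 and did not pass (limma adjusted p = 0.186). The strain difference in Eif3c therefore rests on 1 probe set. Probe sequences were not used here, so whether the probes of that set match the SHR and WKY alleles equally was not tested, and the difference is one of hybridisation signal.

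The reference promoters of the 2 genes that passed are shown for context only, since these arrays hold no measure of binding or chromatin. Each is the 250 bases before the annotated start in the RefSeq table of build GRCr8, which is the genome of another strain (BN), so they do not show SHR or WKY alleles. They lie at chr1:190583068-190583317 for Eif3c and chr20:29942923-29943172 for Eif4ebp2, both on the minus strand, and are written 5′ to 3′ along the gene. Capitals mark matches to CCGGAA, the core of ETS factor sites, on either strand.
Eif3c: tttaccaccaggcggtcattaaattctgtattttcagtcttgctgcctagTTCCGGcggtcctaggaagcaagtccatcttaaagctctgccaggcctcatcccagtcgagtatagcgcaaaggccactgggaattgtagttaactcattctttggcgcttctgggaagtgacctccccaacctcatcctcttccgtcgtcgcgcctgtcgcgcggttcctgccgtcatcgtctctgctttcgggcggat
Eif4ebp2: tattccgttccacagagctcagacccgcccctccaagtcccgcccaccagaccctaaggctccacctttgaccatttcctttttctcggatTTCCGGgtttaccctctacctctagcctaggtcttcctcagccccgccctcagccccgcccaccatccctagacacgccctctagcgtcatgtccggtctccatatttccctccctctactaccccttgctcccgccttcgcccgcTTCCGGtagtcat
Upstream of Eif3c, CCGGAA was found once, on the opposite strand at -200 to -195 from the start. CCGGAA occurred in 12.6% of 33469 promoters of this length and in 20 of the 41 initiation factor genes with a promoter in the table, among them Eif4ebp2, where it was found, again on the opposite strand, at -159 to -154 and at -13 to -8. Neither promoter held CCAAT or TATAAA, which 34.0% and 12.9% of all promoters held, and both held the GC box GGGCGG, found in 30.5% of all promoters and in 28 of the 41. The motifs do not overlap one another here, and a match is not evidence of a site in use.

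Whether Eif3c moved with the rest of its complex was read from the 10 other eIF3 subunit genes with a probe set of their own, each by its brightest tested one. By limma with strain as the only term, 0 of the 10 passed the adjusted threshold, as did 0 of all 12 of their tested probe sets. The outcome with the replicate number as a block is given in the section on processing. An unadjusted p under 0.05 was found for 3 of the 12, near the share of 21.0% over all probe sets tested. They were those of Eif3a and Eif3b, lower in SHR, and the dimmer one of Eif3l, higher in SHR. On the brightest probe sets the log2 differences ran from -0.21 to 0.062 with a median of -0.046, and 8 of 10 were below 0. The 95% intervals of the 10 reached from -0.35 to 0.25 at their widest, so the lowest of these bounds, -0.35, lay well above the upper bound of -0.83 for Eif3c.

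Eif3a, the large scaffold subunit that pairs with Eif3c, was the nearest to passing. It had 271, 260.2, 272, 280.3 and 283 in SHR and 294, 310.5, 322, 332 and 336 in WKY. The SHR values were all below the WKY values, by a small margin. The log2 difference was -0.21 ± 0.060 and did not pass (limma adjusted p = 0.0568).

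Eif3b, the core subunit that holds eIF3g and eIF3i, had 327, 340.0, 278, 274 and 275 in SHR and 352, 342, 305, 370.2 and 336 in WKY. SHR 1 and SHR 2 lay above WKY 3, so the strains overlapped, and the difference of -0.19 ± 0.075 did not pass (limma adjusted p = 0.167). Eif3d, the subunit that can itself contact the cap, had 328, 326, 305, 316 and 297 in SHR and 329.8, 349, 343, 355 and 329.6 in WKY. These values did not overlap either, but SHR 1 and WKY 5 were less than 2 signal units apart, and the difference of -0.11 ± 0.058 did not pass (adjusted p = 0.276).

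For the remaining subunits 0 of the tested probe sets passed. Eif3l, a peripheral subunit that docks with Eif3k, had means of 428 ± 21.1 in SHR and 451 ± 16.8 in WKY (-0.073 ± 0.057) on its brighter probe set. Its dimmer probe set pointed the other way, with 111 ± 9.14 and 92.9 ± 12.1 (0.23 ± 0.093; limma adjusted p = 0.165). Eif3j, a loosely bound subunit, differed by -0.084 ± 0.074 and by -0.12 ± 0.14 on its 2 probe sets. Eif3f and Eif3h, the paired MPN-domain subunits, had 853 ± 63.0 against 842 ± 30.8 and 861 ± 56.3 against 861 ± 33.3, differences of 0.015 ± 0.059 and -0.00093 ± 0.058. Eif3i (-0.0071 ± 0.066), Eif3k (0.062 ± 0.091) and Eif3m (-0.019 ± 0.084) also overlapped between the strains. The probe set shared by Eif3e and Eif3el1, which is outside the member rule, had 616 in SHR and 629 in WKY and differed by -0.030 ± 0.059. Further probe sets of Eif3a, Eif3h and Eif3k had signals too low for the filter, the highest being 40.03 for Eif3k on SHR 2.

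**Figure D2:**
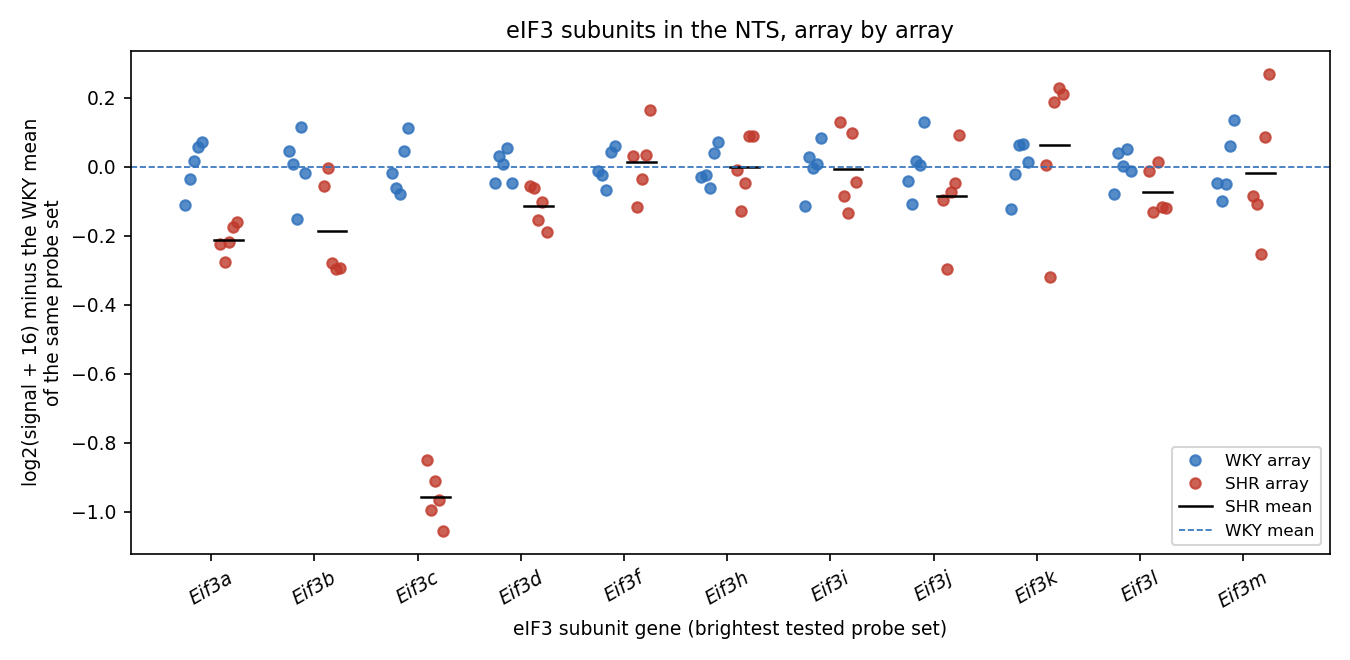
Each point is 1 array, as log2(signal + 16) minus the WKY mean of the same probe set, for the 11 eIF3 subunit genes; blue points are WKY, red points SHR, black lines the SHR means and the dashed line at 0 the WKY mean. The SHR points of Eif3c lie about 1 log2 unit below the WKY points, while the SHR means of the other 10 genes lie between -0.21 and 0.062.

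The ratio of Eif3c to each other subunit within an array compares the genes directly. The log2 ratio was lower in all 5 SHR arrays than in all 5 WKY arrays for 10 of 10 subunits, with strain differences from -0.75 (against Eif3a) to -1.02 (against Eif3k). Each of the 10 comparisons had a two-sided exact permutation p of 0.00794, the smallest that the 252 possible assignments of 5 against 5 arrays allow. All 10 share the Eif3c values and are not independent. The strain gap in Eif3c was far wider than the differences of the other subunits, so this outcome was nearly fixed in advance. These p-values restate the Eif3c difference and add no separate support. The log2 level of Eif3c minus the median of the other subunits, of which only the strain difference can be read, was -0.34 to -0.12 on SHR arrays and 0.59 to 0.80 on WKY arrays. The median of the other subunits itself was 8.54 to 8.78 on SHR arrays and 8.59 to 8.76 on WKY arrays, so the strains overlapped there. With 5 arrays in each strain, and strains that stand apart in Eif3c, no correlation between subunits across arrays was tested.

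Of the 10 genes nearest Eif3c in the RefSeq annotation of GRCr8, 5 on each side, 4 had a tested probe set. By limma 0 of these passed in either direction, and Atxn2l had an unadjusted p under 0.05 on its brightest probe set. The log2 differences on their brightest probe sets were -0.15 ± 0.090 for Sh2b1, a signalling adaptor, -0.14 ± 0.068 for Tufm, the mitochondrial elongation factor, 0.29 ± 0.11 for Atxn2l, a stress granule protein, and -0.037 ± 0.11 for Cln3, a lysosomal membrane protein. The limma adjusted p of the 4 ran from 0.136 for Atxn2l to 0.881 for Cln3.

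Eif4ebp2 encodes 4E-BP2, the main eIF4E-binding repressor of the brain. Its single probe set had signals of 209, 202, 176, 190.4 and 227 in SHR and of 246, 244, 247, 289.9 and 258 in WKY. The SHR values all lay below the WKY values, with SHR 3 the lowest and WKY 4 the highest. The means were 201 ± 19.5 and 257 ± 19.2 (SD, n = 5), a log2 difference of -0.33 ± 0.076 (SE; 95% interval -0.49 to -0.17) and 1.26-fold lower in SHR on the scale of signal + 16 (limma adjusted p = 0.0171). The call ended in 3 of 23 alternatives. Without WKY 4 the difference was -0.29 (limma adjusted p = 0.0626), leaving out SHR 2 together with SHR 3 gave -0.28 (adjusted p = 0.0784), and a covariate for array median signal, a term that overlaps with strain, gave -0.19 (adjusted p = 0.462). The call of Eif3c held in all 23.

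For the other genes of the cap-binding step, 0 of the tested probe sets passed. Of the other 4E-BP genes, Eif4ebp1 had 77.2 ± 16.7 in SHR and 79.3 ± 10.2 in WKY, and Eif4ebp3 80.0 ± 21.4 and 77.1 ± 5.53, with differences of -0.044 ± 0.12 and 0.015 ± 0.13. Both spread widely within SHR, at 59.4 to 98.5 and 51.7 to 106, and the 95% intervals of their differences, -0.30 to 0.21 and -0.27 to 0.30, ended short of the -0.33 of Eif4ebp2 but overlapped its interval. Eif4e itself had 609 to 650.4 in SHR and 592 to 653 in WKY on its bright probe set (0.042 ± 0.053; limma adjusted p = 0.685). A second probe set differed by -0.057 ± 0.13. Another, below the filter, had 21.84 to 35.7 in SHR and 14.6 to 21.80 in WKY, without overlap. Tested without the filter it did not pass (0.39 ± 0.13; limma adjusted p = 0.128). The homologue Eif4e2, which competes for caps, had 92.0 ± 8.01 and 78.2 ± 8.72 (0.20 ± 0.094; adjusted p = 0.237), and the 2 probe sets of Eif4e3 differed by -0.089 and -0.20. The eIF4E transporter gene Eif4enif1 differed by -0.038 ± 0.091.

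**Figure D3:**
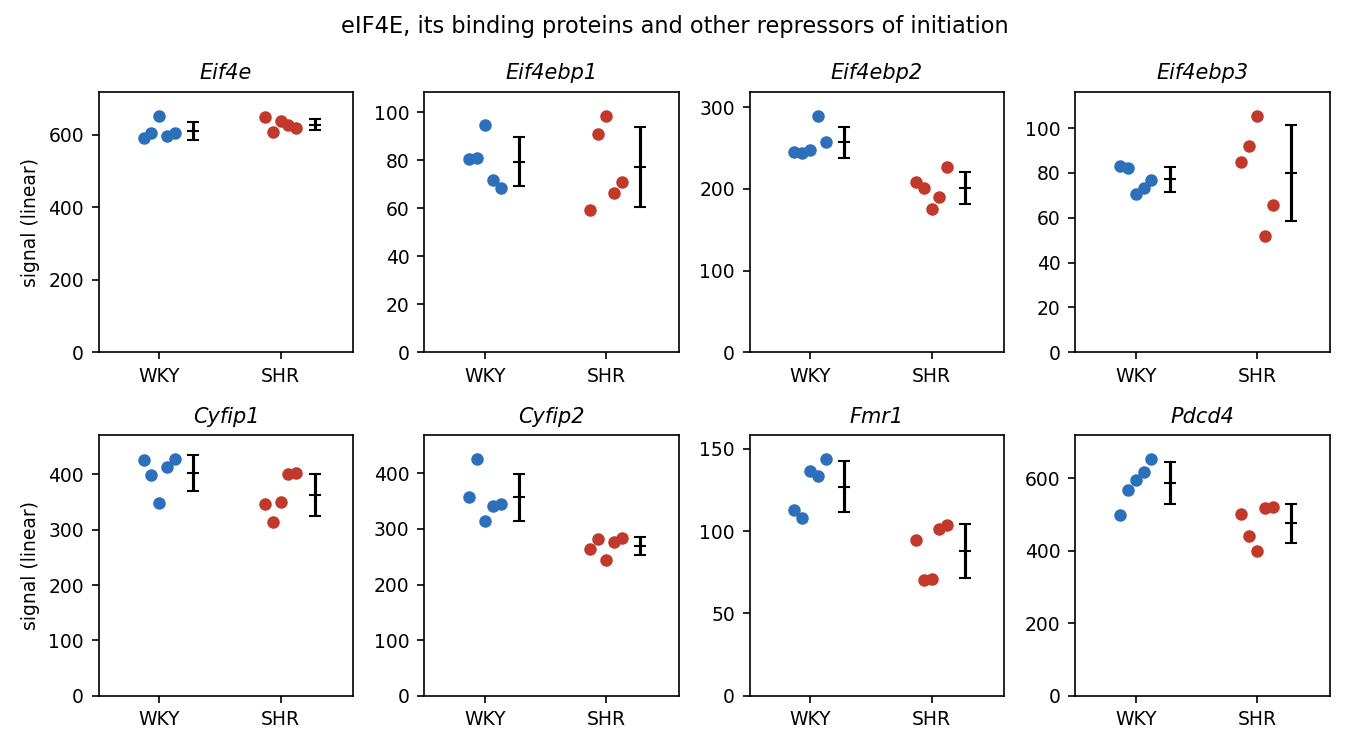
Linear signal of the brightest tested probe set of 8 genes in the 5 WKY (blue) and 5 SHR (red) arrays, each axis starting at 0, with the mean and SD beside the points. The strains do not overlap for Eif4ebp2, Cyfip2 and Fmr1, and they overlap for Eif4e, Eif4ebp1, Eif4ebp3, Cyfip1 and Pdcd4.

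Over all 22 tested eIF4 probe sets, 6 had an unadjusted limma p under 0.05, against 21.0% of all probe sets tested. Of these, 4 were lower in SHR (Eif4a1, Eif4b, Eif4ebp2 and Eif4g1) and 2 higher (Eif4a2 and Eif4e2). Among the scaffold and helicase genes of eIF4, 0 of the tested probe sets passed the adjusted threshold. Eif4g1, the main scaffold, had 315 ± 34.0 in SHR and 369 ± 34.4 in WKY on its bright probe set (-0.22 ± 0.081; limma adjusted p = 0.134), and a dim one differed by 0.25 ± 0.15. Eif4g2, a scaffold that does not bind eIF4E, differed by 0.019, -0.019 and -0.028 on 3 probe sets. Eif4g3 differed by -0.099 ± 0.074. The helicase gene Eif4a1 had 494, 484, 468, 480.0 and 476 in SHR and 496, 504, 641, 536 and 569 in WKY. Its strains did not overlap, but WKY 1 was less than 3 units above SHR 1, and the difference of -0.18 ± 0.067 did not pass (adjusted p = 0.135). Eif4a2, the isoform abundant in brain, had 2475 ± 157 and 2245 ± 208 (0.14 ± 0.067; adjusted p = 0.233), and Eif4a3, which acts in the exon junction complex, differed by 0.11 ± 0.071. The helicase cofactor Eif4b had 299.6 ± 20.3 in SHR and 343 ± 28.2 in WKY (-0.19 ± 0.069; adjusted p = 0.135), against 0.10 ± 0.11 on its second probe set. Eif4h differed by -0.057 ± 0.061.

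For eIF2, 0 of 12 probe sets of 11 genes passed (3 had an unadjusted limma p under 0.05), and 4 of the 12 were below 0, with a median of 0.016. The alpha subunit gene Eif2s1, which carries the regulatory phosphorylation site, had 316 ± 25.7 in SHR and 332 ± 25.4 in WKY (-0.069 ± 0.071). The beta and gamma subunit genes Eif2s2 and Eif2s3 differed by 0.026 ± 0.074 and 0.082 ± 0.11. The widest gap was that of Eif2s3y, the Y-linked gamma gene, with 329, 246.5, 197, 377 and 325 in SHR and 365, 328, 329, 438 and 463 in WKY. The strains overlapped, SHR 2 and SHR 3 were the lowest, and the difference of -0.39 ± 0.14 did not pass (limma adjusted p = 0.127).

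The exchange factor eIF2B reloads eIF2 with GTP, and its 5 subunit genes all had a tested probe set. Eif2b1, of the regulatory part, had 121 to 149.7 in SHR and 99.6 to 126 in WKY, which overlap (0.20 ± 0.085; limma adjusted p = 0.189). The other differences on the brightest probe sets were 0.029 for Eif2b2, 0.13 for Eif2b3, 0.0046 for Eif2b4 and 0.0056 for Eif2b5, each within 1.5 standard errors of 0. Eif2a and Eif2d, which can deliver tRNA in other ways, differed by -0.058 ± 0.072 and -0.26 ± 0.12 (adjusted p = 0.682 and 0.201).

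Of the eIF1 probe sets, 0 of 7 passed (2 had an unadjusted limma p under 0.05) and 6 were below 0. Eif1ax, one of the eIF1A genes that scan for the start codon, had 245, 209, 218, 224 and 253 in SHR and 253, 256, 261, 273 and 259.7 in WKY. SHR 5 and WKY 1 were nearly level at 252.6 and 253.1, and the difference of -0.17 ± 0.066 did not pass (limma adjusted p = 0.146). The 4 probe sets of Eif1a differed by -0.083, -0.12, -0.17 and -0.25, the last with 103 ± 18.2 in SHR and 125 ± 12.2 in WKY (adjusted p = 0.162). Eif1b had 472 ± 27.0 and 485 ± 11.1 (-0.041 ± 0.056), and Eif1ad, a related gene of ribosome maturation, differed by 0.080 ± 0.077.

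Of the late-acting factors, 0 of 7 probe sets passed (1, that of Eif5a, had an unadjusted limma p under 0.05). Eif5a, the hypusine-carrying factor that also helps elongation, had 451, 626, 592, 533 and 487 in SHR and 533, 629.5, 628, 739 and 723 in WKY. The strains overlapped widely and the difference was -0.27 ± 0.095 (limma adjusted p = 0.120). With SHR 2 and SHR 3 left out it passed (-0.39; adjusted p = 0.0369). The second gene, Eif5a2, differed by -0.070 and 0.080 on 2 probe sets, and the subunit-joining GTPase gene Eif5b by -0.082, -0.16 and 0.21 on 3. Eif6 had 485 ± 38.3 in SHR and 509 ± 24.7 in WKY (-0.069 ± 0.063). The probe sets shared by Eif5 and a pseudogene, outside the member rule, differed by 0.0040, -0.088 and 0.10.

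Genes that act on or beside the initiation factors were read from 8 lists of 79 genes, of which 69 had a tested probe set. By the brightest probe set of each gene 3 of 69 were lower and 0 higher, a share near the 4.11% of all 10668 genes that passed in either direction by the same rule, and the median log2 difference was -0.010. The 4 kinases that phosphorylate eIF2 had 0 passing members: Eif2ak1 (0.060 ± 0.069), Eif2ak2 (-0.099 ± 0.096), Eif2ak3 (-0.0093 ± 0.087) and Eif2ak4 (0.097 ± 0.092). The 5 subunits of the opposing phosphatases had 0 as well, and in both lists 0 had an unadjusted limma p under 0.05. Of 11 targets of the stress pathway below eIF2, 0 passed (3 had an unadjusted p under 0.05), and Atf4, the transcription factor whose translation that pathway raises, had 556 ± 25.6 in SHR and 575 ± 23.0 in WKY (-0.049 ± 0.056). These kinases act through phosphorylation, which arrays do not measure.

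The list of poly(A) and cap binding had 2 of 9 members lower and 0 higher (against the same 4.11% of all genes), with a median of -0.15. Fmr1, the gene of the fragile X protein that represses translation in neurons, had 94.3, 70.3, 70.8, 101 and 104 in SHR and 113, 108, 136, 134 and 144 in WKY. The groups did not overlap, SHR 2 and SHR 3 were the lowest, and the log2 difference was -0.47 ± 0.11 (limma adjusted p = 0.0244). The call of Fmr1 ended in 8 of 23 alternatives: without SHR 2, SHR 3, WKY 3, WKY 4 or WKY 5 (adjusted p = 0.0527 to 0.0824), without both SHR 2 and SHR 3, without the filter, and with the median-signal covariate, where the difference was -0.21. Cyfip2, a partner of the fragile X protein, had 263, 282, 244, 276 and 284 in SHR and 357, 426, 314, 341 and 345 in WKY. These did not overlap, and the difference was -0.38 ± 0.076 (adjusted p = 0.00779), a call that ended in 1 of 23 alternatives, the median-signal covariate (adjusted p = 0.149). On its second, dimmer probe set the difference was -0.043 ± 0.10 (adjusted p = 0.854). Cyfip1, the family member that binds eIF4E, had 363 ± 38.1 and 403 ± 32.5 and did not pass (-0.15 ± 0.077; adjusted p = 0.292).

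In the mTORC1 list 0 of 15 genes passed on the brightest probe set (3 had an unadjusted limma p under 0.05), and the median was 0.041. Mtor had 212 ± 25.1 in SHR and 189.7 ± 19.4 in WKY (0.15 ± 0.086; limma adjusted p = 0.349). Pdcd4, an inhibitor of eIF4A, had 476 ± 53.9 and 586 ± 58.2 on its brightest probe set (-0.29 ± 0.083, adjusted p = 0.0556). Of its 4 other probe sets 1 passed, lower in SHR (-0.24 ± 0.065, adjusted p = 0.0414), a call that ended in 14 of 22 alternatives. Further probe sets at -0.19 ± 0.074 and -0.20 ± 0.10 did not pass (adjusted p = 0.154 and 0.277). The faintest of the 5 pointed up (0.27 ± 0.14). Of the 12 elongation genes 1 was lower, Eef1e1, a protein of the multisynthetase complex, with 382, 368, 379, 458 and 388 in SHR and 472, 455, 501, 527 and 527 in WKY. The strains overlapped through SHR 4 and WKY 2, and the difference was -0.32 ± 0.069 (adjusted p = 0.0121). Without both SHR 2 and SHR 3 (adjusted p = 0.0727) and with the covariate (adjusted p = 0.335) Eef1e1 did not pass. Eef1a1, the main tRNA carrier of elongation, had 3565 ± 299 and 3109 ± 241 (0.20 ± 0.069; adjusted p = 0.116). Of 9 other helpers of initiation and 4 termination genes tested, 0 passed in limma, and 3 and 0 had an unadjusted p under 0.05.

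**Figure D4:**
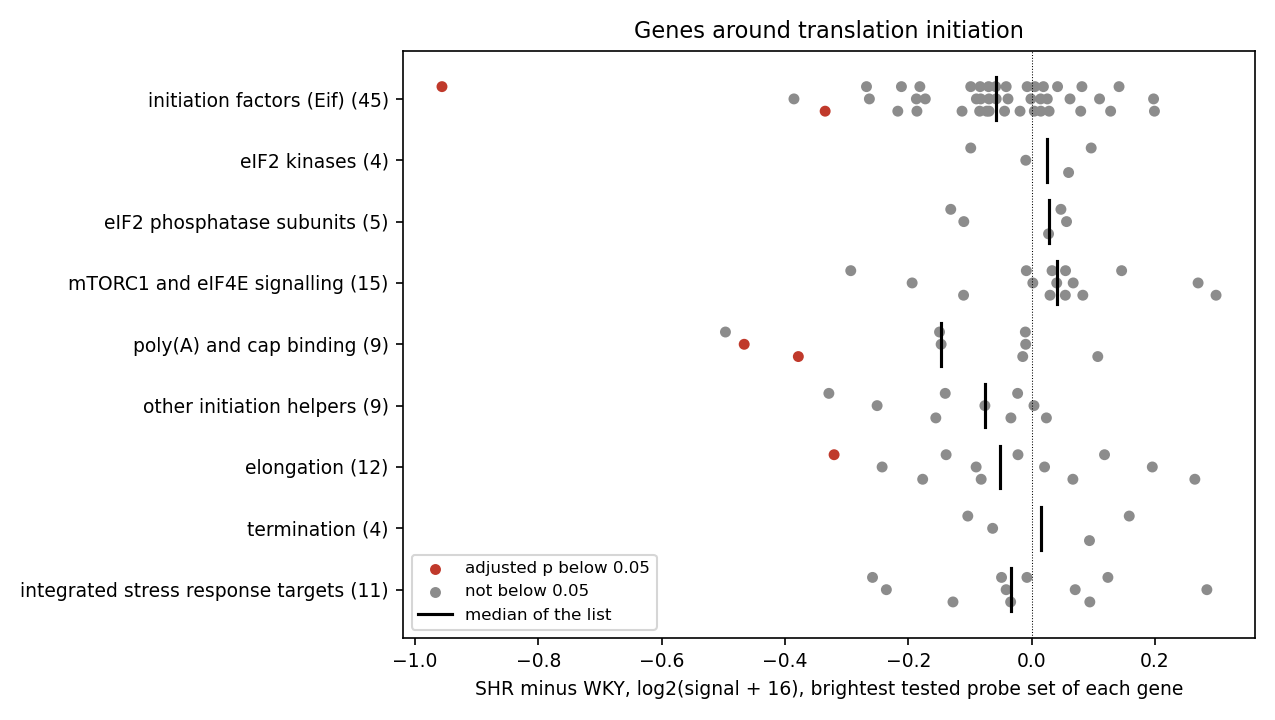
Each point is 1 gene by its brightest tested probe set, as the SHR minus WKY difference in log2(signal + 16), in rows for the 45 initiation factor genes and the 8 lists, with the number of genes in brackets and the median as a black bar. Red points passed the threshold: Eif3c and Eif4ebp2 in the top row, Fmr1 and Cyfip2 under poly(A) and cap binding, and Eef1e1 under elongation.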

How the data were processed

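The 10 arrays were Affymetrix Rat 230 2.0 arrays of NTS RNA. The deposited intensities are linear signals, 1 for each probe set, which the authors computed using the GCOS software, version 1.2, per the submitters' processing notes. The 2% trimmed mean of every array was 100, so the authors had scaled the arrays to one level. Background correction and summary settings were not given in the sources used here.

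Here 57 control probe sets were left out, 16 was added to each signal and log2 taken, with no further normalization. Added constants shrink the differences of dim probe sets. Probe sets at or above the 40th percentile of the array on at least 5 arrays were tested with limma 3.58.1 in R 4.3.3 (strain as the only term, eBayes with an intensity trend, Benjamini-Hochberg over all 18846). The number of arrays limits the precision. The fit was tested on simulated data. The array values of each member probe set and of each Eif3c ratio were also compared by a two-sided exact permutation test. Only the p-values of the ratios are printed. Names came from the platform annotation, and 70 of 70 members matched a RefSeq gene by Entrez ID. The first array of each strain carries no number in its label and is called 1.

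Probe sets past the threshold, all probe sets of eIF3 subunits and the brightest tested probe set of each member gene are named, and in the pathway lists every gene past the threshold with the eIF2 kinases, Mtor, Atf4 and Eef1a1. Other genes and probe sets named in the text were chosen after their values were seen. The members and lists were chosen with earlier results of these data known. The alternatives were other scalings, offsets, filters and variance models, array weights, a replicate block, 1 probe set a gene, a median-signal covariate and leaving out arrays. Figures were drawn with matplotlib 3.10.9 in Python 3.11.15.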

Additional observations from a re-analysis of the deposited data

Results flagged for a closer look

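In 7 of 102 groups of 5 arrays, over the brightest tested probe set of each member gene and all eIF3 probe sets (6.86%), 1 array lay far from the other 4 by Dixon's criterion, which compares its gap to the nearest array with the range of the group. Chance flags about 1 in 20 such groups. Eif2b4 was flagged in both strains, with SHR 4 at 145 (the other SHR arrays at 169.9 to 177) and WKY 3 at 195 (the other WKY arrays at 153 to 165). WKY 3 also stood high for Eif4e, at 653 against 592 to 607, and for Eif4enif1, at 176 against 127 to 140. In Eif4a2, WKY 5 had 2615 while the other WKY arrays had 2127 to 2186. SHR 4 stood low for Eif4e2, at 77.8 against 94.1 to 97.1, and SHR 1 for the dimmer probe set of Eif3l, at 95.2 against 113 to 117. The probe sets of Eif3c and Eif4ebp2 that passed the threshold were not among the 7.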

How the results depend on the processing

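Over 23 alternatives the Eif3c difference stayed between -0.99 and -0.87 (limma adjusted p 1.58e-08 to 1.13e-05). The count of initiation factor probe sets past the threshold was 1 with the median-signal covariate (Eif3c) and 4 with the replicate number as a block, where Eif3a (adjusted p = 0.0485) and Eif2s3y (adjusted p = 0.0136) joined the 2, so 1 of the other eIF3 subunits passed. The main fit did not pair the arrays by number. Deviations of same-numbered arrays correlated weakly, at 0.038 to 0.282, and 3 of 5 SHR arrays were closest to the WKY array of their own number. These values do not settle whether the numbers pair the arrays, so the results with the block stand as an alternative. Leaving out 1 array gave 1 to 3 probe sets: 1 without WKY 4, which lost Eif4ebp2, and 3 without SHR 5, which added a probe set of Eif1a (-0.34, adjusted p = 0.0407), while the other eIF3 subunits stayed at 0. Over all probe sets, 803 passed, against 1214 with the block, 207 with the covariate, 438 with 1 probe set a gene, 471 without both SHR 2 and SHR 3, and 450 to 945 without 1 array (510 without SHR 2, 452 without WKY 4, 450 without WKY 5).

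The sign of uncalled differences turned in 75 values of 23 member probe sets, all with an adjusted p of at least 0.393 there. Most were near 0, but Eif2s3y was at -0.39 and the dimmer probe set of Eif3j at -0.12 before. Quantile normalization gave Eif1b 0.021, Eif2b5 -0.054, Eif3h 0.035, Eif3i 0.048, Eif3m 0.024, Eif4ebp3 -0.021 and Eif4g2 -0.0040. A common 75th percentile gave Eif3h 0.00021. Array weights gave Eif2b2 -0.0092, Eif3h 0.0052, Eif3i 0.029 and Eif4ebp3 -0.024. The covariate gave Eif1ad -0.015, Eif1b 0.015, Eif2a 0.058, Eif2b4 -0.043, Eif2s1 0.0050, Eif2s3y 0.039, Eif3h 0.11, Eif3i 0.079, Eif3j 0.046 and 0.14, Eif3m 0.20, Eif4ebp3 -0.19, Eif4h 0.037, Eif5a2 0.044 and Eif6 0.0045. Without both SHR 2 and SHR 3, Eif1ad was -0.0020, Eif2b2 -0.050, Eif2b4 -0.015, Eif3h 0.057, Eif3i 0.061, Eif3m 0.090, Eif4e3 0.034, Eif4ebp3 -0.18 and Eif5a2 0.020. Without 1 array, Eif2b2 ran from -0.032 to 0.098, Eif2b4 from -0.023 to 0.056, Eif2b5 from -0.023 to 0.037, Eif2s2 from -0.018 to 0.076, Eif3f from -0.022 to 0.048, Eif3h from -0.024 to 0.031, Eif3i from -0.041 to 0.025, Eif3m from -0.091 to 0.040, Eif4ebp1 from -0.12 to 0.028, Eif4ebp3 from -0.078 to 0.13, Eif4enif1 from -0.070 to 0.038 and Eif4g2 from -0.022 to 0.053. The causes of these changes were not tested.

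With 5 arrays in each strain, a member's typical standard error was 0.084 on the log2 scale. In the main fit no member with a smaller difference than Eif4ebp2 passed the adjusted threshold, so small differences may have been missed. Some of these had an unadjusted 95% interval that left out 0, such as Eif3a at -0.21 (-0.34 to -0.084). The array measures RNA, not initiation factor protein or its phosphorylation, and 9 member probe sets were too dim for the test.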
